A study of Mus musculus with 12 samples.

Results

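The genes described here form a stretch of mouse chromosome 13 that runs, in the gene order of the GRCm38 assembly, from H2bc14 (older name Hist1h2bm) to Eci2, both ends included. It holds most of the largest cluster of mouse histone genes and, after it, a mixed run of other genes. The ends were chosen on measured values of these same arrays, and the comparison that set them is not recorded, so each level, difference and count below is a description of the stretch and not a test of it. The annotation lists 435 genes there, 50 of them histone genes, and the array carried probes for 160. A gene entered the analysis when a probe for it had a detection p-value under 0.05 on at least 2 of the 12 arrays, and the brightest such probe stood for the gene. That left 60 genes of the 8891 tested on the whole array, namely 35 histone genes and 25 others. Among the 43 histone genes with a probe, those not tested were 4 H1, 2 H2A and 2 H2B genes. Among the 117 other genes with a probe, the untested ones included 30 Vmn1r pheromone receptor genes, 19 prolactin family genes, 12 Serpinb genes and 3 Slc17a transporter genes. Of the tested genes, 27 histone genes and 16 others were above background on all 12 arrays.

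The study measured RNA of mouse embryonic fibroblasts from a clone with the YYFF form of β1 integrin, in which tyrosines of the receptor's cytoplasmic tail are replaced by phenylalanine, and from a clone with wild-type (WT) β1 integrin. Each clone was examined after 0, 4 or 8 rounds of plating on laminin (L0, L4 and L8), with 2 arrays in each of the 6 groups. In a round, cells spent a night on laminin, a ligand of β1 integrins, in serum-free hybridoma medium, and normal medium was then added; after the last round the cells were grown on plastic. Per the labels, YYFF cells cannot complete cytokinesis while they adhere through β1 integrin alone, and the rounds were meant to make division fail repeatedly. All groups, the WT controls included, came from female C57BL/6 embryos of day E13.5 and carried SV40 large T antigen. Each genotype has 1 clone name in the labels, so genotype and clone cannot be told apart, and rounds on laminin and time in culture cannot be told apart either. The labels do not say that the 2 arrays of a group came from separate cultures, so their spread may be technical.

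Histones are the proteins around which DNA is wound. H2A, H2B, H3 and H4 form the core of the nucleosome, and H1 binds the linker DNA between nucleosomes. Most histone genes of this cluster are replication-dependent: they lack introns, are transcribed mainly in S phase, and their transcripts end in a stem-loop in place of a poly(A) tail. Within the cluster, H2A and H2B genes often lie head to head and share 1 promoter region between them.

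The DNA before 5 histone genes is shown, each chosen for its own reason. H2bc12 and H2ac12 are a head-to-head pair in which the H2B gene passed the threshold within both clones and the H2A gene in neither. H2bc14 is the first gene of the stretch. H2bc11 is an H2B gene whose window lacks the octamer that the other H2B windows shown have. H1f2 is the brighter of the tested linker histone genes. All but H2ac12 were lower in the YYFF clone and higher in the WT clone after 8 rounds, with or without the octamer. Each line gives the 250 bases before the annotated start in RefSeq (build GRCm38.p6), 5′ to 3′ on the strand of the gene. Capitals mark the octamer ATTTGCAT and the CCAAT box CCAAT on either strand and, for H1f2, the H1 box AAACACA on either strand. The stretches lie at chr13:22035571-22035820 on the plus strand for H2bc12, chr13:22035644-22035893 on the minus strand for H2ac12, chr13:21721794-21722043 on the plus strand for H2bc14, chr13:22042948-22043197 on the plus strand for H2bc11, and chr13:23738557-23738806 on the plus strand for H1f2.
H2bc12: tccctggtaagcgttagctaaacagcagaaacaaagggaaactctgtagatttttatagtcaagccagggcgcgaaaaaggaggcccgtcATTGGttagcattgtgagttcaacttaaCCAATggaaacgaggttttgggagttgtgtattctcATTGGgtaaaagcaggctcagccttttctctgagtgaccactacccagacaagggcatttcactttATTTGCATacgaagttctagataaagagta
H2ac12: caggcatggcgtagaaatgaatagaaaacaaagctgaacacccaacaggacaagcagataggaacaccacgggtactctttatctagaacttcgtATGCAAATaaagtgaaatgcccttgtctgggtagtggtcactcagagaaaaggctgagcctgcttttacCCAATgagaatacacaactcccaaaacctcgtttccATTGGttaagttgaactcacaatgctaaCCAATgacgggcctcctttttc
H2bc14: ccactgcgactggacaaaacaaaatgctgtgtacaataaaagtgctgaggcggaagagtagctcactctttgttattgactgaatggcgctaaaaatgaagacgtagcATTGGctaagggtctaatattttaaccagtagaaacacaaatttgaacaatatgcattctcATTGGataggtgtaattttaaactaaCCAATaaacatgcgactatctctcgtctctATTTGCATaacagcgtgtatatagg
H2bc11: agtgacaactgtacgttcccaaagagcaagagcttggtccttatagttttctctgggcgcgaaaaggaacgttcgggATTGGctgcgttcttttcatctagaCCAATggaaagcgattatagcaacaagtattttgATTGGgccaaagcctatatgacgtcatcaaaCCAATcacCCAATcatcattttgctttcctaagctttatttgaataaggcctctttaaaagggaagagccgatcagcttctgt
H1f2: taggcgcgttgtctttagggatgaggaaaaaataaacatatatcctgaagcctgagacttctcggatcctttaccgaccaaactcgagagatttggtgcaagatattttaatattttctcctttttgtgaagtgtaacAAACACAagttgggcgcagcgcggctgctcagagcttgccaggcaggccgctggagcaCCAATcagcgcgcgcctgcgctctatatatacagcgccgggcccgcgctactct
The stretches shown for H2bc12 and H2ac12 share 177 bases, read from opposite strands. The octamer starts 30 bases before the start of H2bc12, 155 before that of H2ac12 and 25 before that of H2bc14. Across windows of 300 bases, 250 before and 50 after the start, RefSeq entries were found for 52 of the 60 genes and 32 of the 35 histone genes. The octamer was in 4 of 9 H2B windows (which belong to 8 genes), 3 of 9 H2A windows and 0 of 9 H4 windows, against 1.74% of all 32851 windows of the same length. The CCAAT box was in every H1, H2A, H2B and H3 window found, in 2 of 9 H4 windows and in 10 of 26 windows of the other genes, against 37.4% of all windows. The H1 box was in both H1 windows, 1 H2A window and 1 H2B window, against 7.18% of all. These matches are letters in a window; binding was not measured.

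The 12 arrays were of even quality. Between 10392 and 11766 of the 25697 probes were above background on each array. Replicate arrays correlated at 0.987 to 0.994 across the 8891 genes tested. Levels below are log2 intensities after background correction and quantile normalization, and a difference of 1 is a 2-fold change. Intensities of different probes cannot be ranked against each other as amounts of RNA. Of 12 listed fibroblast markers, 9 were tested and 7 were above background on all 12 arrays: Col1a1, Col3a1, Col5a1, Vim, Pdgfrb, S100a4 and Sparc. Col1a2 and Pdgfra were tested and were not above background on every array. Of the 9, 1 was higher and 5 lower in YYFF L8 than in YYFF L0 cells (17.1% and 19.3% of all genes). In WT L8 against WT L0 cells 3 were higher and 1 lower (18.4% and 17.7%). None of the listed epithelial, endothelial or skeletal muscle markers was above background on all 12 arrays. Cd14, a macrophage marker, and the neural markers Map2 and Nes were above background on all arrays. Cd14 was higher in YYFF L4 and L8 than in YYFF L0 cells (1.71 and 1.96) and in WT L4 and L8 than in WT L0 cells (0.62 and 0.67). Of 3 tested epithelial markers, 2 were higher in YYFF L4 and in YYFF L8 than in YYFF L0 cells, Krt14 with the larger differences (1.31 and 1.55), and 0 passed the threshold in the WT clone; their summed level was 144 to 191 in YYFF L4 and L8 cells and 96.1 to 131 in the other groups. The summed level of Map2 and Nes was 2296 to 2445 in YYFF L0 cells and 688 to 1058 in the other groups. The summed level of the tested fibroblast markers differed between the clones, at 35410 to 41210 on YYFF arrays and 18580 to 26980 on WT arrays, and the part of these marker levels in the differences below was not tested. In bulk samples, fewer cells that express a gene and less of its RNA per cell cannot be told apart. Coding sequences of one histone family are nearly alike, the probe sequences were not used here, and the share of a probe's signal that comes from related genes was not tested.

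The H2B genes of the stretch, together with H1f2 and H4c8, were lower in the YYFF clone and higher in the WT clone after 8 rounds on laminin, and the remaining histone genes did not share this pattern. Over all 35 histone genes, 12 were lower and 5 higher in YYFF L8 cells than in YYFF L0 cells, while 0 were lower and 22 higher in WT L8 cells than in WT L0 cells (adjusted p under 0.05 in limma over all 8891 genes; 0 were lower and 25 higher at an unadjusted p under 0.05). Over all genes, 19.3% were lower and 17.1% higher in YYFF L8 cells than in YYFF L0 cells, and 17.7% lower and 18.4% higher in WT L8 cells than in WT L0 cells. Some genes were kept only through the groups in which they were high. Among the 27 histone genes above background on all 12 arrays, 9 were lower and 2 higher in YYFF L8 than in YYFF L0 cells, and 0 were lower and 19 higher in WT L8 than in WT L0 cells. With each array scaled to a common median in place of quantile normalization (median scaling below), 12 of the 35 were lower and 2 higher in the YYFF clone, and 0 lower and 15 higher in the WT clone. The WT call of H1f2 was lost there, and the YYFF call of H4c8 was lost with an array left out. For the dim H2B genes H2bc8 and H2bc6 only bounds were measured. The median histone gene differed by -0.08 in the YYFF clone and by 0.51 in the WT clone, while the medians of all genes were 0.03 and 0.00. Among the other 25 genes, 11 were higher and 3 lower in YYFF L8 cells than in YYFF L0 cells, with a median of 0.26, and 11 were higher and 0 lower in WT L8 cells than in WT L0 cells, with a median of 0.32. The 263 tested genes of the rest of the chromosome had medians of 0.00 in the YYFF clone and 0.04 in the WT clone.

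The clones also differed in when the genes moved. In the YYFF clone the shift was present after 4 rounds: 2 histone genes were higher and 11 lower in YYFF L4 cells than in YYFF L0 cells, and 9 of the other genes were higher and 2 lower, against 14.4% of all genes higher and 17.2% lower. Between L8 and L4 in the YYFF clone, 0 genes of the stretch passed limma's threshold, against 0.405% of all genes higher and 1.03% lower; at an unadjusted p under 0.05, 4 genes were higher and 3 lower. In the WT clone, 3 histone genes were higher and 1 lower in WT L4 cells than in WT L0 cells, and 6 others were higher and 1 lower, against 7.49% of all genes higher and 7.99% lower. Most of the WT shift came later. In WT L8 cells 19 histone genes were higher and 0 lower than in WT L4 cells, and 7 others were higher and 0 lower, against 10.8% of all genes higher and 8.86% lower.

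**Figure D1:**
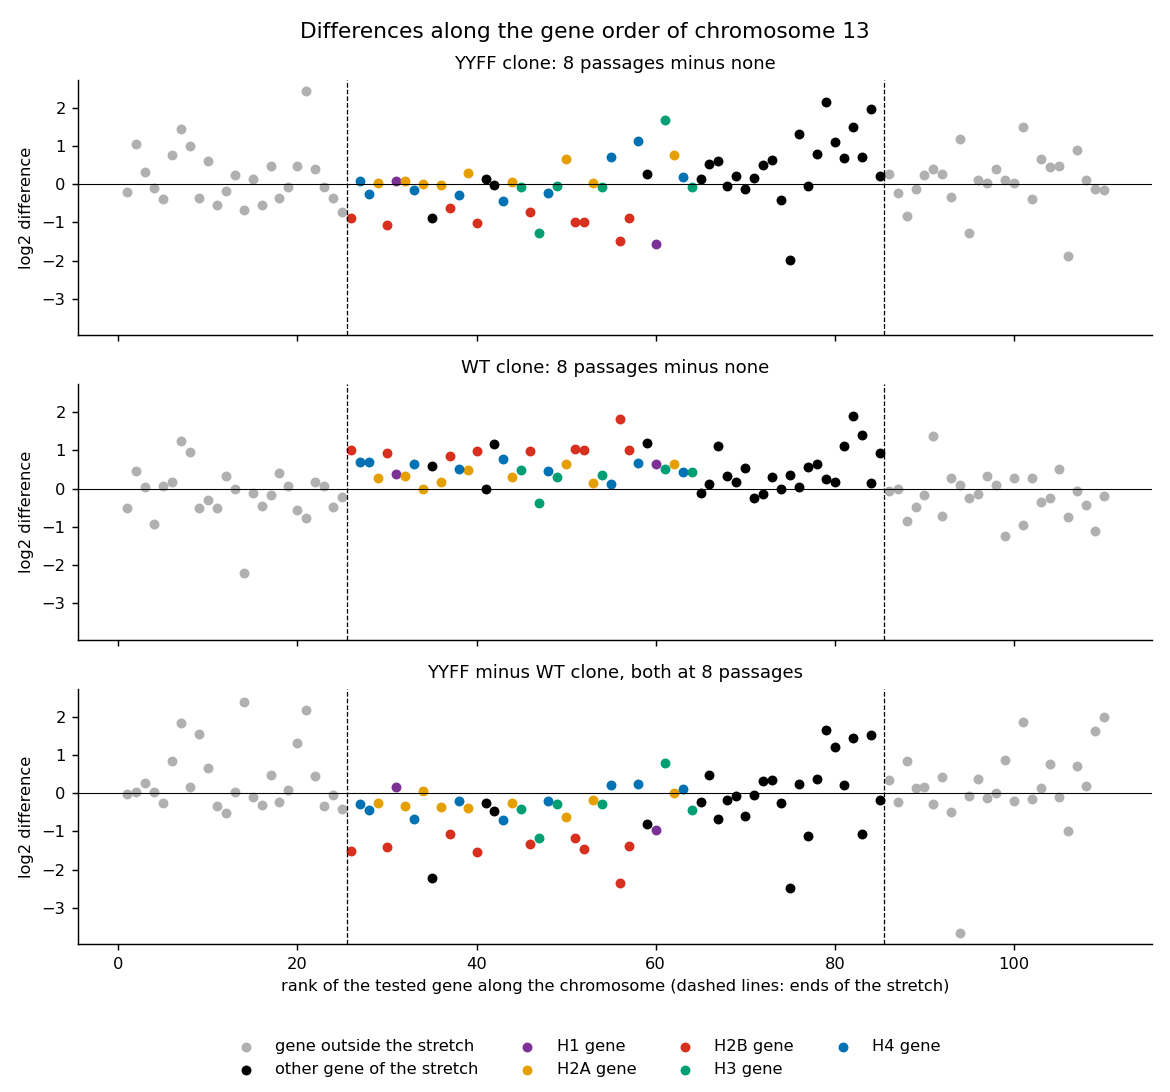
Log2 difference (vertical axis) of each tested gene against its rank along chromosome 13 (horizontal axis), with 25 tested genes outside each end in grey; colours mark the histone families and black the other genes of the stretch. The 9 H2B genes lie below 0 in the top panel, exceed 0 in the middle one, and lie below 0 again in the bottom one, which compares the clones; the 7 of them above background on all arrays have medians of -0.90, 1.00 and -1.42. Points of dim genes are fitted values, not measured sizes.

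The clones were also compared at the same number of rounds. Without laminin, 11 histone genes were higher and 1 lower in YYFF L0 cells than in WT L0 cells (14.7% and 12.2% of all genes), and 3 of the other genes were higher and 2 lower. After 4 rounds, 2 histone genes were higher and 9 lower in YYFF L4 cells than in WT L4 cells (18.2% and 19.7% of all genes), and 9 others were higher and 5 lower. After 8 rounds, 0 histone genes were higher and 18 lower in YYFF L8 cells than in WT L8 cells (17.2% and 19.8% of all genes), and 6 others were higher and 6 lower. Under median scaling the histone genes past the threshold were 3 higher and 0 lower at L0, 1 higher and 2 lower at L4, and 0 higher and 14 lower at L8, so most calls at L0 and L4 were lost and most at L8 were made. The median histone gene differed by 0.17, -0.17 and -0.38 between YYFF and WT cells at L0, L4 and L8. These comparisons share their arrays with those within a clone.

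**Figure D2:**
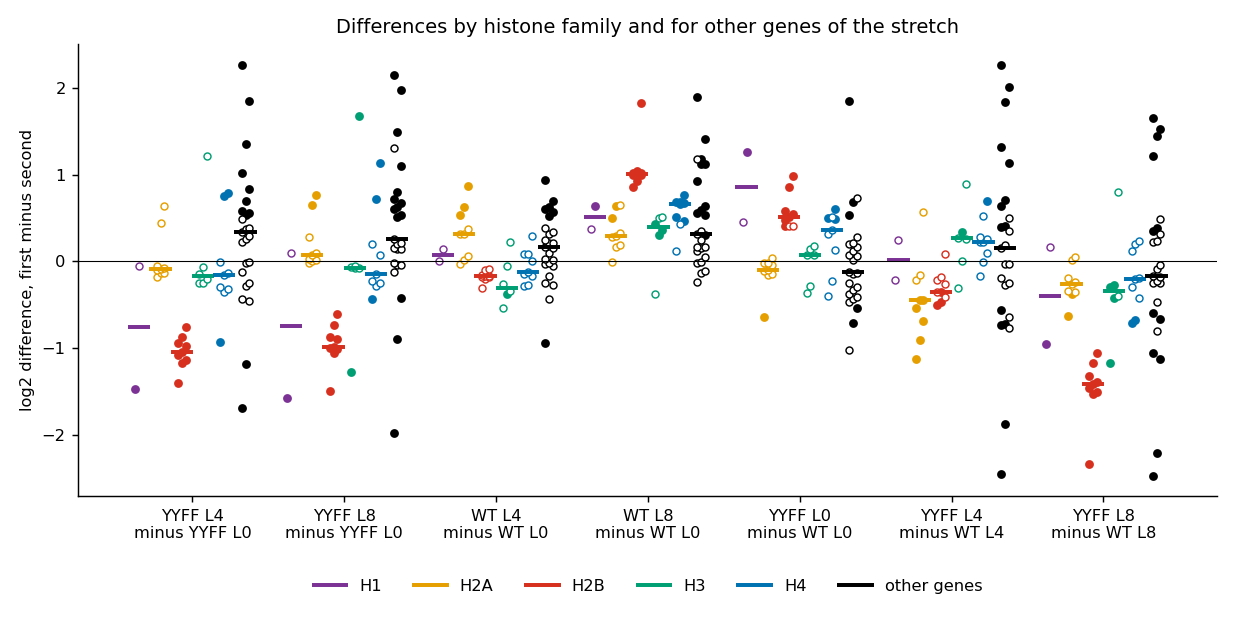
Log2 difference (vertical axis) of each tested gene of the stretch in 7 comparisons (horizontal axis), by histone family and for the other genes; filled points passed an adjusted p of 0.05, open points did not, and bars are medians. The H2B genes above background on all arrays have medians of -1.05 and -0.90 in the YYFF comparisons and 1.00 in WT L8 cells. The H2A medians are -0.09 and 0.07 in the YYFF comparisons, with H2ac8 and H2ac4 above the rest, and 0.30 in WT L8 cells. The other genes spread widely.

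H2B genes encode a core histone of the nucleosome. Of the 9 tested, 7 were above background on all 12 arrays, and H2bc8 and H2bc6, which entered through YYFF L0 and WT L8 cells alone, are described apart. The 7 were lower in YYFF L4 cells (median -1.05, range -1.18 to -0.76) and in YYFF L8 cells (median -0.90, range -1.06 to -0.61) than in YYFF L0 cells. They were higher in WT L8 cells than in WT L0 cells (median 1.00, range 0.86 to 1.02) and than in WT L4 cells (median 1.18, range 1.02 to 1.30). None passed limma's threshold between WT L4 and WT L0 cells, nor an unadjusted p of 0.05, and all 7 differences were below 0 (median -0.17). At L0, 5 of the 7 were higher in YYFF than in WT cells (median 0.47), at L4 3 were lower (median -0.36), and at L8 all 7 were lower (median -1.42). Under median scaling 0 of the L0 calls and 0 of the L4 calls were made, and the L8 calls and those within each clone held. With each array of the compared groups left out in turn, the calls of all 7 held for WT L8 against WT L0 and WT L4 cells, for YYFF L8 against WT L8 cells and for YYFF L4 against YYFF L0 cells, and H2bc12 lost its call for YYFF L8 against YYFF L0 cells. In each of the 7 genes WT L8 cells had the highest mean, YYFF L0 cells the next, and YYFF L4 cells the lowest.

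H2bc14, the first gene of the stretch, shows the pattern array by array. Its log2 intensity was 9.89 and 9.88 in YYFF L0 cells, 8.91 and 8.96 in YYFF L4 cells and 8.93 and 9.04 in YYFF L8 cells. It was 9.54 and 9.40 in WT L0 cells, 9.25 and 9.33 in WT L4 cells and 10.53 and 10.46 in WT L8 cells. The L0 arrays of the YYFF clone lie above all its L4 and L8 arrays, and the L8 arrays of the WT clone lie above all others. YYFF L8 cells were thus 1.86-fold lower than YYFF L0 cells, at a log2 difference of -0.90 ± 0.10 (SE, here and below). WT L8 cells were 2.03-fold higher than WT L0 cells, at 1.02 ± 0.10.

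H2bc7 and H2bc4 gave the same picture at higher intensity. H2bc7 read 11.65 and 11.63 in YYFF L0, 10.42 and 10.69 in YYFF L4 and 10.77 and 10.51 in YYFF L8 cells, and 11.12 and 11.07 in WT L0, 11.05 and 10.78 in WT L4 and 12.17 and 12.03 in WT L8 cells. H2bc4 read 11.41 and 11.51 in YYFF L0, 10.03 and 10.53 in YYFF L4 and 10.60 and 10.55 in YYFF L8 cells, and 10.93 and 10.97 in WT L0, 10.63 and 10.93 in WT L4 and 11.94 and 12.003 in WT L8 cells. In neither gene do the arrays of YYFF L0 overlap those of YYFF L4 or L8, or those of WT L8 overlap those of WT L0 or L4. The remaining bright members, H2bc15, H2bc12, H2bc11 and H2bc9, differed by -0.61 to -1.06 between YYFF L8 and YYFF L0 cells and by 0.86 to 1.00 between WT L8 and WT L0 cells.

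H2bc8 and H2bc6 were dim and were above background on 4 arrays each, those of YYFF L0 and WT L8. H2bc6 read 6.70 and 6.29 in YYFF L0 cells and 7.39 and 7.28 in WT L8 cells, and between 4.96 and 5.54 on the 8 arrays of the other groups, where it was not above background. Against the lowest signal above background on those arrays, H2bc6 was at least 1.74-fold lower in YYFF L8 than in YYFF L0 cells and at least 3.46-fold higher in WT L8 than in WT L0 cells. The same bounds for H2bc8 were 1.3-fold lower and 1.66-fold higher. Its call for YYFF L4 against YYFF L0 cells was lost with an array left out.

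**Figure D3:**
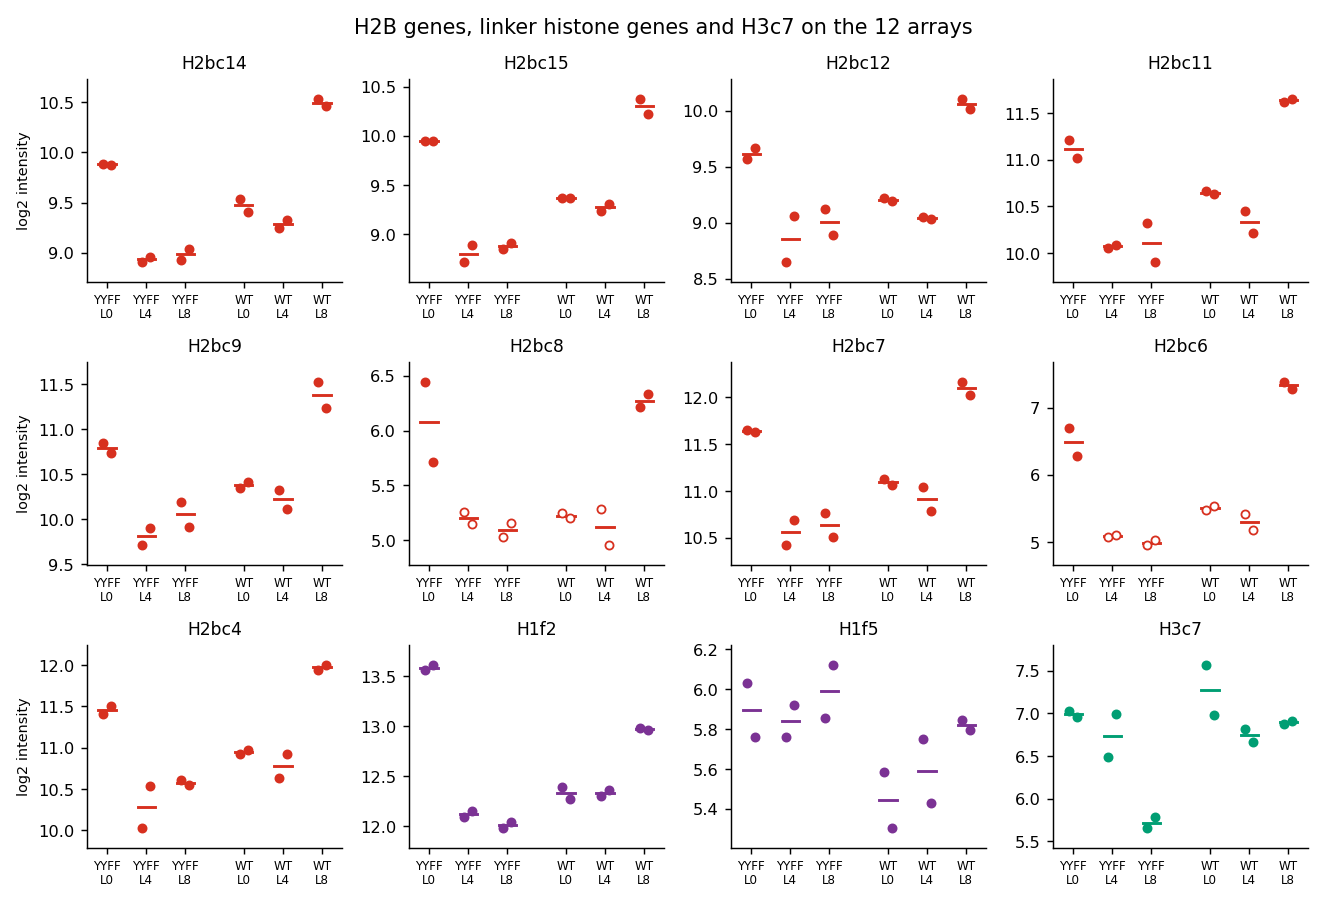
Log2 intensity (vertical axis, own range in each panel) on the 12 arrays (points, by group on the horizontal axis) with group means (bars) for the 9 H2B genes, H1f2, H1f5 and H3c7; open points mark groups in which neither array was above background. Every H2B panel has its highest mean in WT L8, for example with 11.62 and 11.66 for H2bc11, and its next highest in YYFF L0.

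The linker histone gene H1f2, which encodes H1.2, fell further in the YYFF clone than any other histone gene of the stretch that was above background on all 12 arrays. It read 13.56 and 13.61 in YYFF L0, 12.09 and 12.15 in YYFF L4 and 11.98 and 12.04 in YYFF L8 cells, and 12.39 and 12.27 in WT L0, 12.30 and 12.36 in WT L4 and 12.98 and 12.96 in WT L8 cells. The YYFF L0 arrays lie above all others and the WT L8 arrays next, while the arrays of WT L0 and WT L4 cells overlap. The gene was 2.99-fold lower in YYFF L8 than in YYFF L0 cells (-1.58 ± 0.09) and 1.56-fold higher in WT L8 than in WT L0 cells (0.64 ± 0.09). The WT call was lost under median scaling and the YYFF call was not. At L0 it was 2.39-fold higher in YYFF than in WT cells (1.26 ± 0.09), and at L8 it was 1.95-fold lower (-0.96 ± 0.09). H1f5, which encodes H1.5, was dim and above background on 10 arrays; it lay between 5.30 and 6.12 and passed the threshold in none of the 9 comparisons.

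H2A genes behaved unlike their H2B neighbours. None of the 9 passed limma's threshold in YYFF L4 cells against YYFF L0 cells (median -0.09; 2 were higher and 0 lower at an unadjusted p under 0.05), and in YYFF L8 cells H2ac8 and H2ac4 were higher (0.65 and 0.76) and 0 lower (median 0.07). Under median scaling the H2A median in YYFF L4 cells was 0.09, on the other side of 0, and neither call in YYFF L8 cells was made. In the WT clone 3 were higher in L4 than in L0 cells: H2ac11 (0.87 ± 0.13), H2ac22 (0.63) and H2ac10 (0.53), of which 1 was called under median scaling. Between WT L8 and WT L0 cells 8 of the 9 differences were above 0 (median 0.30), the direction of the H2B genes. There H2ac11 (0.50) and H2ac8 (0.64) were higher and 0 lower. Of these calls 1 was made under median scaling, and neither held with each array left out in turn. H2ac11 read 11.15 and 11.15 in YYFF L0, 10.97 and 11.13 in YYFF L4 and 11.52 and 11.35 in YYFF L8 cells, and 11.16 and 11.46 in WT L0, 12.25 and 12.11 in WT L4 and 11.74 and 11.88 in WT L8 cells. Its mean in the WT clone was thus highest at L4, where that of its H2B neighbour H2bc11 was highest at L8. The difference of H2ac11 between WT L8 and WT L4 cells (-0.37) did not pass the threshold. After 4 rounds 6 of the 9 H2A genes were lower in YYFF than in WT cells (median -0.45, with 2 genes under median scaling). After 8 rounds 2 were lower and 0 higher (median -0.27), and 1 of these calls was made under median scaling.

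The head-to-head pair whose promoter is printed above differed in this way. H2bc12 read 9.57 and 9.67 in YYFF L0, 8.65 and 9.06 in YYFF L4 and 9.12 and 8.89 in YYFF L8 cells, and 9.22 and 9.19 in WT L0, 9.05 and 9.03 in WT L4 and 10.11 and 10.02 in WT L8 cells. H2ac12 read 13.61 and 13.56 in YYFF L0, 13.53 and 13.49 in YYFF L4 and 13.73 and 13.39 in YYFF L8 cells, and 13.68 and 13.79 in WT L0, 14.23 and 13.86 in WT L4 and 13.94 and 13.89 in WT L8 cells. H2bc12 differed by -0.61 between YYFF L8 and YYFF L0 cells, H2ac12 by -0.02; between WT L8 and WT L0 cells the values were 0.86 and 0.18. H2bc15 with H2ac15 gave -1.06 and 0.03 in the YYFF clone, and H2bc7 with H2ac7 gave -1.0 and 0.02. H2bc8 was at least 1.3-fold lower there, and H2ac8 differed by 0.65. Between WT L8 and WT L0 cells both partners were above 0. The values were 0.93 and 0.28 for H2bc15 with H2ac15, 1.00 and 0.16 for H2bc7 with H2ac7, and 0.99 and 0.50 for H2bc11 with H2ac11. The difference between partners was not tested. Probes of 5 of the 9 H2A genes averaged over 13, close to the highest value of the arrays (14.69), and H2ac24 was exceeded on average by 13 of 25697 probes; whether such bright probes still follow a rise in RNA was not tested.

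H3 genes were mixed. Between YYFF L8 and YYFF L0 cells H3c3 was higher and H3c7 lower, and the remaining 4 lay between -0.08 and -0.05. H3c7 read 7.03 and 6.96 in YYFF L0, 6.49 and 6.997 in YYFF L4 and 5.66 and 5.78 in YYFF L8 cells, and 7.57 and 6.98 in WT L0, 6.82 and 6.66 in WT L4 and 6.88 and 6.91 in WT L8 cells. Both YYFF L8 arrays lie below the other 10, and the log2 difference from YYFF L0 was -1.28 ± 0.21. Of the 2 YYFF L8 arrays, 1 was above background, so this size rests in part on a value not above background. H3c3, not above background in YYFF L0 cells, read 6.40 and 7.56 in YYFF L8 cells and was at least 2.92-fold higher there than in YYFF L0 cells. In the WT clone H3c6, H3c4 and H3c1 were higher in L8 than in L0 cells (0.30, 0.36 and 0.43), calls that were lost under median scaling and with single arrays left out. The rise of H3c3 was lost when replicate 2 of either group was left out. H3c6 was also lower in WT L4 than in WT L0 cells (-0.38), again a call lost under median scaling.

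H4 genes resembled H2B genes in the WT clone but not in the YYFF clone. Of the 9, 7 were higher in WT L8 than in WT L0 cells and 0 were lower; over the 7 genes above background on all arrays, the differences had a median of 0.66 and ran from 0.12 to 0.77. Under median scaling 5 of these calls were made, and 2 held with each array left out in turn (H4c11 and H4c8). In YYFF L8 cells only H4c8 was lower than in YYFF L0 cells (-0.44), while H4c4 was higher (0.72), as was H4c3; of these 3 calls, that of H4c3 alone held with each array left out in turn. H4c8 read 8.20 and 8.03 in YYFF L0, 7.19 and 7.16 in YYFF L4 and 7.53 and 7.83 in YYFF L8 cells, and 7.69 and 7.54 in WT L0, 7.28 and 7.41 in WT L4 and 8.25 and 8.52 in WT L8 cells. Its YYFF L4 arrays lie below all others, and its WT L8 arrays above all others. H4c3 was above background in 6 arrays and was at least 1.79-fold higher in YYFF L8 than in YYFF L0 cells and at least 1.42-fold higher in WT L8 than in WT L0 cells. H4c2, the dimmest histone gene kept, was above background on 2 arrays and passed the threshold in none of the 9 comparisons.

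The difference between the clones in their response was also fitted as a term of its own, the YYFF change minus the WT change. After 4 rounds it passed the threshold above 0 for 1 histone gene and below 0 for 13. For the other genes it passed above 0 for 4 and below 0 for 3, against 10.3% of all genes above and 13.4% below. After 8 rounds it passed the threshold above 0 for 0 histone genes and below 0 for 18. For the other genes it passed above 0 for 4 and below 0 for 6, against 14.4% and 17.5% of all genes. Among the 7 H2B genes above background on all arrays it was below 0 for all 7 after 4 and after 8 rounds. It passed the threshold for 6 after 4 rounds (median of the 7 -0.82, range -1.05 to -0.60). After 8 rounds it passed for 7 (median -1.92, range -2.01 to -1.47). It also passed the threshold for H2bc6 after 4 and 8 rounds and for H2bc8 after 8 rounds, genes for which no size was measured. Both genes were kept through YYFF L0 and WT L8 cells alone, so their passing is a description. H1f2 gave -1.47 and -2.22, and none of the 9 H2A genes passed limma's threshold, or an unadjusted p of 0.05, after 8 rounds (median -0.21).

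Histone genes outside the stretch give a setting for these values. Of 15 listed replication-dependent histone genes elsewhere in the genome, 7 were tested. Their median was -0.04 between YYFF L8 and YYFF L0 cells and 0.24 between WT L8 and WT L0 cells, where 0 passed limma's threshold (2 were higher and 0 lower at an unadjusted p under 0.05). H2ac18 was 4.35-fold lower in YYFF L8 than in YYFF L0 cells (-2.12), whereas H2bc18, the only H2B gene among the 7, differed by 0.57 and did not pass the threshold. Of 11 genes listed as replication-independent histone genes, 8 were tested. Of these, 3 were higher and 2 lower in YYFF L8 than in YYFF L0 cells (17.1% and 19.3% of all genes). Under median scaling 0 were higher and 1 was lower. H2ax, a variant phosphorylated at DNA breaks, was 1.83-fold lower in YYFF L8 than in YYFF L0 cells. H2az1, a variant found at promoters, was 1.45-fold higher, a call lost under median scaling and with the compared arrays alone.

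Genes that act in S phase or on histone transcripts were read beside these. Of 32 listed S-phase replication genes, such as the Mcm helicase subunits, 26 were tested; 4 were higher and 1 lower in YYFF L8 than in YYFF L0 cells (median 0.06; 17.1% and 19.3% of all genes), and 2 were higher and 1 lower in WT L8 than in WT L0 cells (median 0.09; 18.4% and 17.7% of all genes). Under median scaling 0 of them were higher or lower in either comparison. Between the clones, their medians were -0.17, -0.20 and -0.13 in YYFF against WT cells at L0, L4 and L8. The medians over all genes were -0.04, -0.02 and 0.01. Among these 26 genes, those lower numbered 5, 5 and 3, and 1 was higher at each. Over all genes, 12.2%, 19.7% and 19.8% were lower and 14.7%, 18.2% and 17.2% higher. Of 19 listed genes for histone gene transcription and histone mRNA processing, 13 were tested; 1 was higher and 0 lower in YYFF L8 than in YYFF L0 cells (median 0.07), and 3 were higher and 2 lower in WT L8 than in WT L0 cells (median -0.09; 2 higher and 1 lower under median scaling). Their medians in YYFF against WT cells were -0.13, -0.18 and -0.08 at L0, L4 and L8. Of the 13, those lower numbered 2, 4 and 5, and 0 were higher, against the same shares of all genes. Lsm10, a subunit of the U7 particle that cuts histone pre-mRNA, had the largest value of that list in WT L8 cells (1.17).

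The 25 other genes of the stretch shared no such pattern. The largest differences belonged to genes near its far end. Foxq1, a forkhead transcription factor gene, read 10.53 and 10.49 in YYFF L0, 8.77 and 8.87 in YYFF L4 and 8.35 and 8.70 in YYFF L8 cells, and 10.67 and 10.62 in WT L0, 11.20 and 11.35 in WT L4 and 10.97 and 11.02 in WT L8 cells. The passaged YYFF groups lie below every other group. YYFF L8 cells were 3.96-fold lower than YYFF L0 cells (-1.98 ± 0.13) and 5.57-fold lower than WT L8 cells, while WT L4 cells were 1.55-fold higher than WT L0 cells, a call lost under median scaling. Foxc1, another forkhead gene nearby, was higher in WT L8 than in WT L0 cells (0.56; lost under median scaling) and did not pass the threshold between YYFF L8 and YYFF L0 cells (-0.04). It was lower in YYFF than in WT cells at L0, L4 and L8 (-0.53, -0.72 and -1.13), of which the L0 call was lost under median scaling. The third, Foxf2, was above background on 7 arrays and passed the threshold in none of the 9 comparisons.

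Serpinb1a, Serpinb6a and Pxdc1 rose in the YYFF clone, and none of them passed the threshold between WT L4 or WT L8 and WT L0 cells. Serpinb1a, which encodes an inhibitor of neutrophil proteases, was above background only on the 4 YYFF L4 and L8 arrays. It read 7.11 and 6.93 in YYFF L4 and 7.24 and 6.57 in YYFF L8 cells, at least 3.01-fold and at least 2.77-fold higher than in YYFF L0 cells. Serpinb6a, another intracellular protease inhibitor gene, read 12.66 and 12.78 in YYFF L0, 13.74 and 13.74 in YYFF L4 and 13.75 and 13.89 in YYFF L8 cells, and 12.42 and 12.46 in WT L0, 12.52 and 12.32 in WT L4 and 12.76 and 12.44 in WT L8 cells. YYFF L4 and L8 arrays lie above all others, and YYFF L8 cells were 2.14-fold higher than YYFF L0 cells. Pxdc1, which encodes a PX domain protein and is the gene before the last, read 8.00 and 7.72 in YYFF L0, 9.76 and 9.66 in YYFF L4 and 9.97 and 9.70 in YYFF L8 cells, and 8.15 and 8.16 in WT L0, 7.97 and 7.78 in WT L4 and 8.39 and 8.22 in WT L8 cells. It was 3.94-fold higher in YYFF L8 than in YYFF L0 cells (1.98 ± 0.14). The YYFF change exceeded the WT change after 8 rounds for Serpinb6a and Pxdc1 (0.94 and 1.82) and, with no size measured, for Serpinb1a. Serpinb1a was kept through YYFF L4 and L8 cells alone, so its passing is a description.

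Nqo2, a quinone reductase gene, was higher in L8 than in L0 cells of both clones, at 0.67 in YYFF and 1.13 in WT cells, and its 3 probes gave the same direction in both. Tubb2b, a β-tubulin gene best known from neurons, was higher in YYFF L8 than in YYFF L0 cells (1.49 with the probe used). That probe, the brightest on average over the 12 arrays, read 12.36 and 12.08 in YYFF L8 and 10.78 and 10.67 in YYFF L0 cells. All 5 detected probes gave a positive difference there, and the other 4 gave smaller ones, 0.79 to 0.96. In the WT clone the probes disagreed: the brightest gave 1.90 between L8 and L0 cells and the other 4 gave -0.88 to 0.26, so no direction is given for WT cells. The brightest averaged 10.749 and the next, which gave 0.26, 10.748. Tubb2b is counted above among the other genes higher in WT L8 than in WT L0 cells through the brightest probe alone. All 5 were higher in YYFF than in WT cells, by 1.13 to 3.87 at L0, 2.27 to 5.41 at L4 and 1.44 to 4.45 at L8. Acot13, an acyl-CoA thioesterase gene, was higher in L8 than in L0 cells of both clones (0.61 in YYFF and 1.13 in WT cells). The YYFF calls of Nqo2 and Acot13 were lost when YYFF L0 replicate 1 was left out. The 11 genes of this set that never reached a difference of 1, Eci2 among them, stayed between -0.64 and 0.92 in all 9 comparisons.

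**Figure D4:**
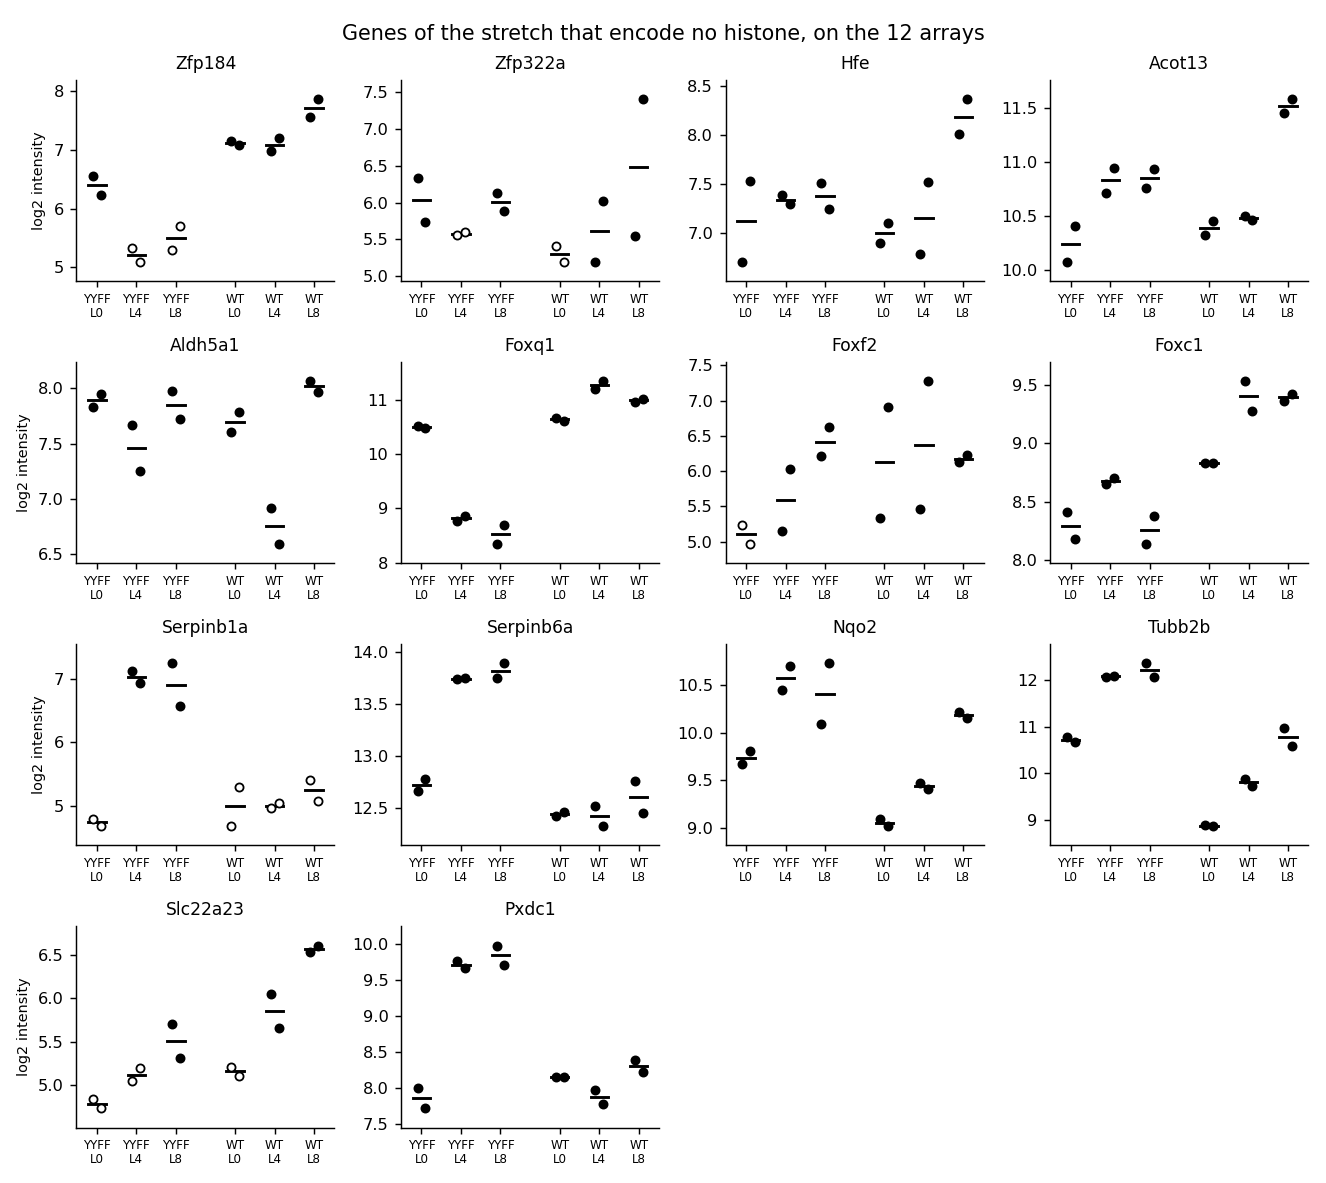
Log2 intensity (vertical axis, own range in each panel) on the 12 arrays (points, by group on the horizontal axis) with group means (bars) for the 14 genes of the stretch that encode no histone and reached a difference of 1 between groups; open points mark groups in which neither array was above background. Foxq1 is lowest in YYFF L4 and L8, at 8.35 and 8.70 in L8, while Serpinb1a, Serpinb6a and Pxdc1 are highest there.

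Other genes moved in the WT clone. Hfe, whose product regulates iron uptake and is altered in human haemochromatosis, read 6.71 and 7.54 in YYFF L0, 7.39 and 7.29 in YYFF L4 and 7.51 and 7.24 in YYFF L8 cells, and 6.90 and 7.10 in WT L0, 6.79 and 7.52 in WT L4 and 8.00 and 8.36 in WT L8 cells. Its WT L8 arrays lie above all others (1.18 ± 0.30 against WT L0), a call lost without WT L0 replicate 1 or WT L8 replicate 2. Aldh5a1, a gene for a dehydrogenase of GABA breakdown, was lower in WT L4 than in WT L0 cells (-0.94) and differed by 0.32 in WT L8 cells, which did not pass the threshold. Slc22a23, a transporter family gene above background on 4 arrays, was at least 2.04-fold higher in WT L8 than in WT L0 cells. Zfp184, a zinc finger gene that lies among the histone genes, was above background in all WT groups and in YYFF L0 cells, and was at least 1.63-fold lower in YYFF L8 than in YYFF L0 cells and at least 4.04-fold lower than in WT L8 cells. Zfp322a, also a zinc finger gene, was above background on 7 arrays, and its WT L8 arrays read 5.55 and 7.40; it passed the threshold in none of the 9 comparisons.

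At the ends of the stretch the pattern was that of single genes. Just inside, H2bc14 and H4c11 differed by 1.02 and 0.69 between WT L8 and WT L0 cells, and Pxdc1 and Eci2, a gene for an enzyme of fatty acid oxidation, by 0.15 and 0.92. Just outside, Zkscan3 and Zscan26 before the stretch differed by -0.47 and -0.23, and Cdyl and Fars2 after it by -0.07 and -0.01. The 25 tested genes before the stretch had a median of -0.11 and the 25 after it a median of -0.18 in that comparison, with 11 and 8 above 0. Between YYFF L8 and YYFF L0 cells the same flanks had medians of -0.08 and 0.12.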

How the data were processed

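RNA of 12 samples was measured on Illumina bead arrays. Per the file headers, the deposited table is not normalized and holds, for 25697 probes, each array's average bead intensity beside the detection p-value that came with it. By the labels' protocols, 100 ng of total RNA went into amplification and biotin labelling with a kit (Illumina TotalPrep) that primes from poly(A) tails, so a histone signal reads only the transcripts this step copied. limma is named in the submitters' processing notes, with no role. The authors' processed intensity table served as an alternative. In R 4.3.3 with limma 3.58.1, background was corrected by normexp with an offset of 16, its control parameters read off the detection p-values, before quantile normalization and log2. Probes with a detection p-value under 0.05 on at least 2 arrays were kept (12974), with 1 probe, the brightest, per gene. A model with 1 mean per group was fitted to all 12 arrays, and p-values were adjusted by Benjamini-Hochberg over 8891 genes. The fit was tested on simulated data.

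The members and gene lists were chosen with earlier results of these data known. Named were all tested histone genes, the 2 genes inside and outside each end, and other genes with a log2 difference of at least 1 in a comparison and above background on every array of a compared group, and members whose probes disagreed in sign. A group not above background on both arrays gives an "at least" fold against the lowest signal of a probe above background there. Arrays carry no counts, and their number limits precision. Replicate numbers of the labels were not shown to pair the arrays. Alternatives covered normalization, background correction, filters, probe choice, the replicate block, the arrays in the fit and each array left out.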

Additional observations from a re-analysis of the deposited data

Results flagged for a closer look

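The change with laminin rounds differed between the clones in 46 cases among the named genes of the stretch, by a term for the YYFF change minus the WT change with an adjusted p under 0.05 in limma over all 8891 genes (given here as log2 values). These are differences in a measure that may have set the ends of the stretch, so they describe it. Between L4 and L0, the H2B genes with such a difference were H2bc14 (-0.76), H2bc15 (-1.05), H2bc11 (-0.74), H2bc9 (-0.82), H2bc7 (-0.91) and H2bc4 (-1.01). Among the remaining histone genes they were H2ac22 (-0.80), H4c9 (-0.61), H2ac11 (-0.97), H4c8 (-0.66), H2ac10 (-0.67) and H1f2 (-1.47). Of the genes that encode no histone, Serpinb6a (1.04) and Pxdc1 (2.13) had the higher change in the YYFF clone and Foxq1 (-2.32) and Eci2 (-0.73) the lower. Between L8 and L0, the H2B genes with such a difference were H2bc14 (-1.92), H2bc15 (-2.0), H2bc12 (-1.47), H2bc11 (-2.0), H2bc9 (-1.74), H2bc7 (-2.01) and H2bc4 (-1.90). The remaining histone genes were H4c11 (-0.61), H4c12 (-0.94), H4c18 (-0.80), H4c9 (-0.80), H4c8 (-1.20), H3c7 (-0.90), H4c6 (-0.69), H3c4 (-0.43) and H1f2 (-2.22). Of the genes that encode no histone, Serpinb6a (0.94) and Pxdc1 (1.82) had the higher change in the YYFF clone and Foxq1 (-2.34), Foxc1 (-0.60) and Eci2 (-0.72) the lower after the same rounds. The remaining cases concern genes that were kept through the groups in which they were high, so their passing the threshold is a description and no test. Neither array of a compared group was above background for them, so their fitted terms are no measured sizes. These terms were -1.19 for H2bc6, 0.93 for H4c3, 2.26 for Serpinb1a and -1.16 for Zfp184 after 4 rounds, and -3.32 for H2bc6, -2.03 for H2bc8, 1.90 for Serpinb1a, -1.49 for Zfp184 and -0.68 for Slc22a23 after 8 rounds. No gene of the stretch was singled out for 1 array far from the others, since each group holds 2 arrays.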

How the results depend on the processing

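Each of the 549 named differences (61 genes in 9 comparisons, those outside the stretch included) was recomputed under each alternative, with the cause of a lost call not tested. The direction and the side of the threshold stayed for 535 with the authors' processed values, 494 when the compared arrays were fitted alone, 489 under median scaling (56 lost a call), 540 without background correction, 536 without the detection filter, 544 with the mean of a gene's detected probes and 499 of 504 with detection required on 6 arrays. Of 205 named differences past the threshold, 126 stayed past it with every single array left out. With the replicate block, 535 stayed and 14 gained a call; the genes of the stretch past the threshold then numbered 28 in YYFF L4 against YYFF L0 cells (24 without the block), 35 in WT L8 against WT L0 (33) and 31 in YYFF L8 against WT L8 (30). The replicate numbers agree between titles and descriptions in 3 of 6 groups, and 15 correlations of same-numbered arrays' deviations ran between 0.0248 and 0.354 (median 0.178), all above 0 and 13 over 0.1; since 2 were under 0.1 and the numbers disagree between labels, the arrays were not taken as paired. The mean of its probes turned Tubb2b from 0.93 (the brightest probe) to -0.25 in WT L4 against WT L0 cells. Under median scaling the histone median in YYFF L8 against YYFF L0 cells was -0.18 (from -0.08) and in YYFF L0 against WT L0 cells 0.27 (from 0.17); the genes past the threshold numbered 1 in YYFF L8 against YYFF L4, 3 in WT L4 against WT L0 (11 before; also 3 with the compared arrays alone), 5 in YYFF L0 against WT L0 (17) and 14 in YYFF L4 against WT L4 cells (25). Without the filter, dim genes entered, and the median of the other genes was 0.016, 0.026, 0.0060, 0.0098 and 0.0048 for YYFF L4 and L8 against YYFF L0, WT L4 and L8 against WT L0 and WT L8 against WT L4, and -0.0090 and 0.0092 for YYFF against WT at L4 and L8; the histone median was 0.0017 in WT L4 against WT L0, 0.43 in WT L8 against WT L4 and -0.019 in YYFF L4 against WT L4 cells. The histone median in WT L8 against WT L0 cells was 0.42 with the authors' values, and against WT L4 cells 0.51 both with these and without background correction. With detection on 6 arrays, the median of the other genes in YYFF L0 against WT L0 cells was 0.041. With 1 array left out, the median of the other genes ran from 0.22 to 0.41 in YYFF L4 against YYFF L0, 0.28 to 0.54 in YYFF L8 against YYFF L0, 0.034 to 0.27 in WT L4 against WT L0, 0.26 to 0.50 in WT L8 against WT L0, -0.15 to 0.061 in YYFF L0 against WT L0 and -0.092 to 0.20 in YYFF L4 against WT L4 cells; the histone median ran from 0.54 to 0.63 in WT L8 against WT L0 and 0.17 to 0.27 in YYFF L0 against WT L0 cells. Genes past the threshold then numbered 5 (without WT L0 replicate 1) to 8 in WT L4 against WT L0, 19 (without WT L8 replicate 2) to 25 in WT L8 against WT L0, and 5 (without YYFF L0 replicate 2) to 9 (without WT L0 replicate 1) in YYFF L0 against WT L0 cells. A group left with 1 array was assumed to vary like the others. With 2 arrays a group, from 1 clone per genotype, small differences were not detectable, and for genes not above background only a bound is measured.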

Other observations

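E2f3 and Sox4, a pair of transcription factor genes of the stretch, stayed under a difference of 1 and are given here after their values were seen. E2f3, which encodes a member of the E2F family that drives genes of S phase, was above background on all 12 arrays. It read 8.35 and 8.36 in YYFF L0, 8.89 and 8.90 in YYFF L4 and 8.65 and 9.07 in YYFF L8 cells, and 8.63 and 8.73 in WT L0, 8.12 and 8.38 in WT L4 and 8.47 and 8.62 in WT L8 cells. Its YYFF L4 and L8 arrays lie above its YYFF L0 arrays, while its WT L4 and L8 arrays lie below its WT L0 arrays. The YYFF change minus the WT change was 0.97 ± 0.21 after 4 rounds (adjusted p = 0.00981 in limma) and 0.65 ± 0.21 after 8 rounds (adjusted p = 0.0446), with signs opposite to those of the H2B genes. Sox4, a gene of the SOX family of transcription factors, was above background on 8 arrays and on none of YYFF L4 or L8. It was higher in WT L8 than in WT L0 cells (0.54 ± 0.15). Between YYFF L8 and YYFF L0 cells it did not pass the threshold, and no size was measured there. Under median scaling the calls of E2f3 for YYFF L4 and L8 against YYFF L0 cells and that of Sox4 for WT L8 against WT L0 cells were lost, as they were with single arrays left out.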
